A study of Mus musculus with 45 samples.

Results

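Relative mRNA half-life was compared between cortical cells of E16.5 and E11.5 mouse embryos, for the 10220 genes of 53491 listed whose half-life could be fitted in all 6 tables of these stages. A gene entered when each chase time had more than 500 covered Ts (sequenced thymine positions) and when every fit gave a half-life between 0 and 24 h with an R2 above 0.6. This held for 10858 genes in the 3 E11.5 tables and 11850 in the 3 E16.5 tables. Of the 10220 genes, 9339 were annotated as protein coding and 610 as processed pseudogenes, whose reads may be shared with their parent genes. The relative half-life of a gene is its log2 half-life minus the median over these 10220 genes in the same table, so a gain means that the gene moved up against the other transcripts of its cells and not that its half-life in hours became longer.

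The series applied SLAM-seq, in which RNA labelled with 4-thiouridine (4sU) is chemically converted so that labelled positions read as T-to-C changes, to cultured cells from microdissected wild-type cortex. Cells were dissociated at E11.5 (early neurogenesis; 7 embryos pooled per replicate), E14.5 or E16.5 (late neurogenesis; 2 embryos pooled), cultured in medium with bFGF, exposed to 100 uM 4sU for 20 h and chased with 5 mM uridine for 0, 2, 4, 8 or 12 h. All groups share this culture, so the age names the day of dissection, and the strain was not given in the sources used here. Replicates A, B and C of a stage are separate pools, and each chase time is a single well and library, which makes 30 libraries in the 6 tables.

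The level of an mRNA depends on its synthesis and its decay. Deadenylation by the CCR4-NOT complex starts the decay of most mRNAs, and elements of the 3′ untranslated region (UTR) that bind proteins or miRNAs set how fast it runs. In the embryonic cortex, radial glia divide and produce intermediate progenitors and neurons, and mRNAs of transcription factors tend to be short-lived while those of ribosomal and respiratory chain proteins tend to last. In a mixed culture, fewer cells of a type and less RNA per cell cannot be told apart, and a half-life is an average over all cells that contain the transcript.

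Libraries held 16495500 to 42765200 reads. In hours, fitted half-lives were shorter at E16.5. The median half-life was 4.41, 4.77 and 3.88 h in the E11.5 tables and 3.34, 3.40 and 3.49 h in the E16.5 tables. The difference of -0.941 h had an exact two-sided permutation p of 0.1, the smallest that 3 against 3 tables allow. The label itself also differed. The T-to-C rate at 0 h was 1.01% to 1.44% at E11.5 and 1.80% to 1.91% at E16.5. After 12 h the rate was 0.262% to 0.288% at E11.5 and 0.240% to 0.252% at E16.5. In the median gene, 15.8% to 22.6% of the 0 h rate was then left at E11.5 against 11.1% to 11.2% at E16.5. The 12 h rates were thus closer than the 0 h rates, and their part in the shorter half-lives was not tested. E11.5 replicate C had the highest rate and the shortest median of its stage. The SD of log2 half-lives was 0.566 ± 0.0244 (SD, n = 3) at E11.5 and 0.612 ± 0.00313 (SD, n = 3) at E16.5, with an exact two-sided permutation p of 0.1. Pairs of tables correlated at r = 0.735 to 0.761 across genes within E11.5, 0.882 to 0.897 within E16.5 and 0.721 to 0.787 between the stages, so E11.5 tables were as far from each other as from E16.5.

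Of the 10220 genes, 108 gained (1.06%) and 90 lost (0.881%) relative half-life at E16.5 with an adjusted p under 0.05 in limma. Their changes ran from -1.40 to 1.62 on the log2 scale, and the smallest called change was 0.432 in size. The evidence per gene was thin: adjusted p-values of the called genes lay between 0.0435 and 0.0498, and no gene was called when any 1 of the 6 tables was left out or when tables were divided by their SD or quantile normalized, although 1747 to 2495 genes then had an unadjusted p under 0.05. A limma fit that lets the variance depend on covered Ts called 701 gains (6.86%) and 578 losses (5.66%), among them 184 of the 198 genes. Replicates of the stages did not overlap in 1663 gains (16.3%) and 1582 losses (15.5%). Counts by gene list are given below in 1 or more of these 3 ways, as called by limma, called with the variance trend, or without overlap. Each is to be read beside the share over all genes given here.

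The largest gains among called protein-coding genes were in genes of mixed function, led by the potassium channel Kcnn4 and the methyltransferase Eef1akmt1. The half-life of Dynlrb1, a light chain of cytoplasmic dynein (GRCm38, chr2:155236533-155250277), was 8.98, 9.14 and 8.78 h at E11.5 and 13.5, 20.7 and 17.4 h at E16.5. All E16.5 values lay above all E11.5 values although the median fitted half-life was shorter at E16.5. For Dynlrb1, 51.1% to 60.0% of the label was left after 12 h at E16.5. Fitted half-lives above 12 h, here and below, lie beyond the last chase time and are extrapolated. Its mean 0 h rate was 1.17% at E11.5 and 3.01% at E16.5. The relative gain of Dynlrb1 was 1.26 ± 0.165 (SE, limma, adjusted p = 0.0435). Wdr13, a WD-repeat protein, went from 7.36, 7.03 and 7.16 h to 12.5, 13.9 and 13.9 h, a gain of 1.25 ± 0.108. For Wdr13, 19.5% to 25.1% of the label was left after 12 h at E11.5 and 38.0% to 40.6% at E16.5, and its level at 0 h rose 1.46 on the log2 scale (edgeR, adjusted p = 1.9e-08).

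Eef1akmt1, a methyltransferase of elongation factor 1A, gained 1.50, and Eif6, which keeps the large ribosomal subunit from joining too early, gained 0.94. B2m, the light chain of MHC class I, gained 1.10 while its level at 0 h changed by -0.75. Ndufa4, a respiratory chain protein, was among the most stable transcripts, with 13.3 ± 1.22 h (SD, n = 3) at E11.5 and 19.8 ± 2.55 h (SD, n = 3) at E16.5, and gained 0.92. The remaining names were Kcnn4, a calcium-activated potassium channel (gain 1.56), the protease Prss36 (1.17), Ifrd2 (1.15), the secreted neurotrophic factor Ndnf (1.11), the mitochondrial ribosomal protein Mrpl48 (0.98) and Xkr6 (0.97). Prss36 and Kcnn4 rested on few positions, with at least 609 and 675 covered Ts per library, and Prss36 was not called with the variance trend (adjusted p = 0.0585, limma). Exons of Mrpl48 overlap Rab6a on the opposite strand, and the strand setting of the counting was not given in the sources used here. Such overlaps on the opposite strand also exist for Fam129b with Lrsam1, Rpl15 with Nkiras1, Nefm with Nefl, Dusp1 with Ergic1 and Cnot3 with Leng1, and with loci known by Gm or Rik symbols for Xkr6, Eif6, Alyref2, Rspo3, Dnajb6, Snrpn, Kif22, Cux1, Eomes and Cnot1, so values of these genes may include reads of the partner.

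The largest losses included transcripts that were near or above the median half-life at E11.5 and well below it at E16.5. Lrrn3, a leucine-rich repeat membrane protein of neurons, had half-lives of 4.92, 4.78 and 4.10 h at E11.5 and 1.77, 1.80 and 1.82 h at E16.5. The stages were far apart and the relative change was -1.01 ± 0.0798 (SE; limma, adjusted p = 0.0435), while its level at 0 h rose 2.11 on the log2 scale (edgeR, adjusted p = 1.7e-08). After 2 h of chase 66.5% to 78.7% of the Lrrn3 label was left at E11.5 and 44.6% to 46.8% at E16.5. Rspo3, a secreted enhancer of Wnt signalling, had 4.96, 4.95 and 6.18 h against 1.63, 1.82 and 1.69 h, a change of -1.29, and its level rose 3.79 on the log2 scale. Gpr85, an orphan receptor of the brain, had 5.97, 9.31 and 4.52 h against 2.24, 2.26 and 2.39 h, a change of -1.11.

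Cstb, the protease inhibitor cystatin B, changed by -1.27 and Nacad, which has the domain of the nascent polypeptide-associated complex, by -1.22. The list went on with the mRNA export adaptor Alyref2 (-1.40), the kinase activator Mob3b (-1.36), Ccdc40, a protein of motile cilia (-1.17), the ubiquitin ligase Ube2cbp (-1.08), Mettl26 (-1.06), the zinc finger gene Zfp954 (-1.01) and Fam129b (-1.01). Ccdc40, Alyref2 and Mob3b had as few as 564, 969 and 899 covered Ts in a library.

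**Figure D1:**
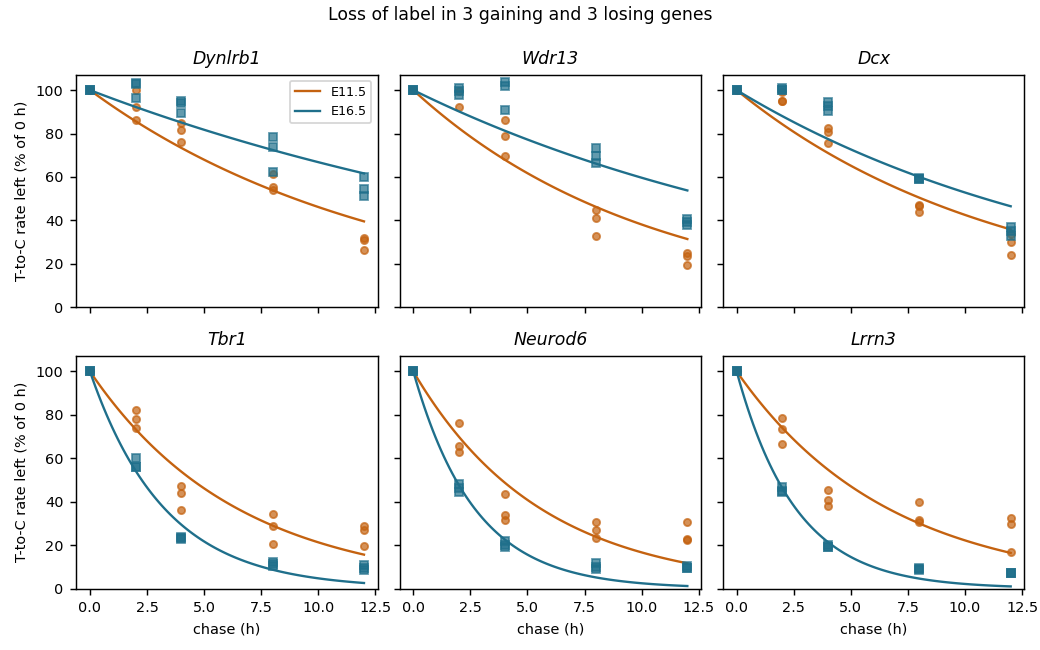
T-to-C rate left, as percent of the 0 h rate, against hours of chase for 3 genes that gained (Dynlrb1, Wdr13, Dcx) and 3 that lost relative half-life (Tbr1, Neurod6, Lrrn3). Points are the 3 replicates of each stage, and lines are exponential decays drawn with the mean half-life of the stage. E16.5 points lie above E11.5 points in the upper row from 4 h to 8 h and below them in the lower row at every chase time, and the long-lived transcripts lose little label in the first 2 h while the short-lived ones level off above 0.

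E14.5 was not used to choose the genes and gives a value for 9505 of them. Among the called genes measured there, 156 of 182 (85.7%) had an E14.5 mean between those of E11.5 and E16.5, against 40.7% of all genes. Called genes leave more room between the outer stages, so the shares are a description. Of the genes above, Dcx had relative half-lives (log2) of 0.90, 1.34 and 1.67 in the order of age, and Rspo3 of 0.30, -0.39 and -0.99. Dynlrb1, with 1.05, 1.32 and 2.31, changed mostly after E14.5. Cstb, with 1.56, 1.92 and 0.28, was highest at E14.5, outside the range of the other stages.

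Neuronal genes did not move together: the factors Tbr1 and Neurod6 lost relative half-life, and Dcx, Tubb2b and Marcksl1 of the cytoskeleton gained it. Tbr1, a transcription factor of deep-layer projection neurons (chr2:61802930-61814114), had half-lives of 4.87, 4.97 and 3.59 h at E11.5 and 2.21, 2.23 and 2.36 h at E16.5. Its relative change was -0.62 ± 0.0935 (SE; limma, adjusted p = 0.0435). Neurod6, a bHLH factor of pyramidal neurons, had 3.36, 4.80 and 3.44 h against 1.82, 1.80 and 1.97 h, a change of -0.69 (limma, adjusted p = 0.0498). The E16.5 values of both genes lay below all E11.5 values of the same gene.

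The related factor Neurod2 had a change of -0.81 that missed the threshold (limma, adjusted p = 0.0637; 0.00163 with the variance trend), and its E11.5 replicate B, at 7.42 h, stood apart from 4.42 and 4.18 h. Bcl11b, a factor of subcerebral projection neurons, had a change of -0.32 (limma, adjusted p = 0.129; 0.018 with the trend). At 0 h, Neurod6 and Neurod2 rose by 2.98 and 1.85 on the log2 scale (edgeR, adjusted p = 5.6e-10 and 1.1e-08), while their changes in relative half-life were negative.

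Dcx, which binds microtubules in migrating neurons (chrX:143855842-143933311), moved the other way. Its half-life was 8.26, 8.80 and 7.26 h at E11.5 and 10.7, 11.1 and 10.8 h at E16.5, a relative gain of 0.77 ± 0.0736 (SE; limma, adjusted p = 0.0435; 1.27e-07 with the variance trend, the lowest of all genes). Tubb2b, a beta-tubulin of developing neurons, had 7.05, 7.23 and 6.46 h against 7.82, 8.06 and 7.86 h, a gain of 0.54. Marcksl1, an actin-binding relative of Marcks, had 6.85, 7.68 and 5.91 h against 7.39, 7.36 and 7.61 h, so its stages overlapped in hours, and its gain of 0.48 was seen relative to the table medians.

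The list of neuronal cytoskeleton and growth cone genes had 35 measured members of 36. Limma called 3 gains and 1 loss among them, and the variance trend 16 gains and 3 losses. Replicates did not overlap in 18 gains (51.4%) and 3 losses (8.57%), against 16.3% and 15.5% of all genes. The list's median change was 0.16, against 0.00 over all genes. Among its members, Tuba1a, Map1b, Basp1 and Gap43 had gains of 0.41, 0.39, 0.43 and 0.33, which passed only with the variance trend. The losses were in neurofilament-type and transport genes: Nefm changed by -0.51 (limma, adjusted p = 0.0473), and the values were -0.48 for Ina and -0.49 for the kinesin Kif5a. Tubb3, the tubulin most used as a neuronal marker, was at 0.11 (limma, adjusted p = 0.42). Under a log-linear fit of the decay the median of this list was -0.07, so its direction depended on how the curve was fitted.

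**Figure D2:**
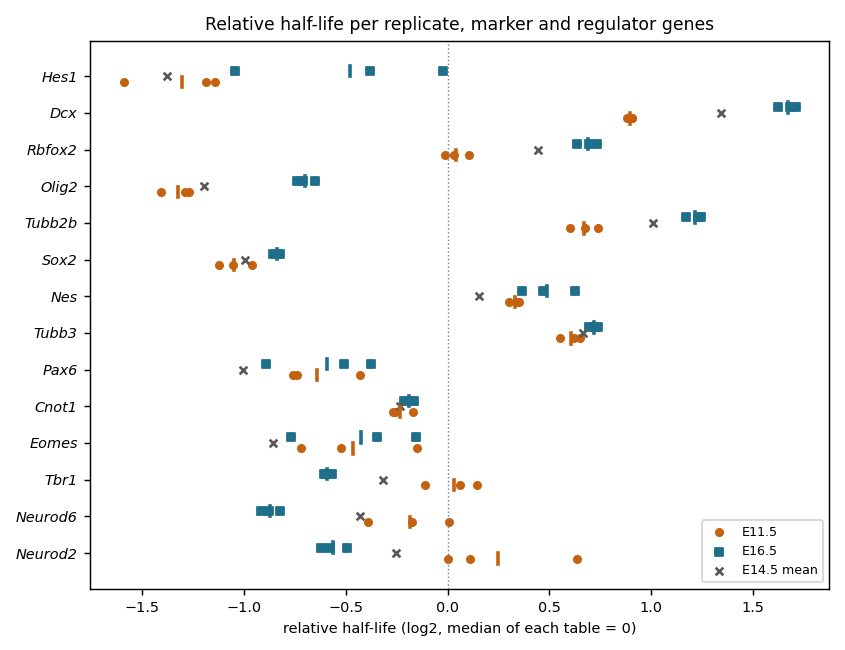
Relative half-life (log2, the median of each table set to 0) of 14 marker and regulator genes. Circles and squares are the 3 replicates of E11.5 and E16.5, vertical bars their means, and crosses the mean of E14.5. The 3 squares lie to the right of the circles for Dcx and Tubb2b and to the left for Tbr1 and Neurod6, whereas Pax6 and Eomes overlap.

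Synaptic genes were split in the same manner. Of 37 measured members, limma called 2 gains and 0 losses, and the variance trend 8 gains and 5 losses. Without overlap were 11 gains (29.7%) and 9 losses (24.3%), against 16.3% and 15.5% of all genes. The median change was -0.05. Stx1a, the syntaxin of synaptic vesicle fusion, gained 0.85, with 5.12, 4.76 and 4.61 h at E11.5 and 6.31, 7.59 and 6.73 h at E16.5. Dlg4, which encodes the postsynaptic scaffold PSD-95, gained 0.53. Its paralogue Dlg2 had a change of -0.86 that missed the threshold (limma, adjusted p = 0.0531), with 8.17, 13.2 and 8.02 h against 4.35, 4.07 and 4.00 h.

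Axon guidance ligands and receptors mostly had negative changes. Of 41 measured members, 30 had a negative change. Limma called 0 gains and 1 loss, and the variance trend 1 gain and 7 losses. There were 2 gains (4.88%) and 14 losses (34.1%) without overlap, against 16.3% and 15.5% of all genes. The median was -0.19, and the list's median relative half-life was -0.02 to 0.08 in the E11.5 tables and -0.23 to -0.19 in the E16.5 tables. The called gene was Epha3, an ephrin receptor, with 4.13, 4.71 and 3.84 h at E11.5 and 2.11, 1.89 and 1.96 h at E16.5, a change of -0.74. Sema6b, a transmembrane semaphorin, had the largest value, -1.40, and missed the threshold (limma, adjusted p = 0.0641) with 8.35, 15.4 and 5.23 h in the E11.5 replicates. Its partner class of receptors included Plxna4 at -0.58 and Plxna3 at 0.35, neither called by limma.

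Most genes of DNA replication and mitosis had a positive change, but limma called 0 gains and 0 losses among them. Of 59 measured members of 61, 53 had a positive change, and the variance trend called 21 gains and 0 losses. Without overlap were 35 gains (59.3%) and 1 loss (1.69%), against 16.3% and 15.5% of all genes. The median change was 0.29. The list's median relative half-life was -0.04 to -0.03 in the 3 E11.5 tables and 0.21 to 0.29 in the 3 E16.5 tables, so the stages did not overlap, while at E14.5 it was -0.13, below both.

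Of the mitotic genes in this list, Ncapg, a condensin subunit, had 5.14, 4.72 and 4.30 h at E11.5 and 5.14, 6.21 and 8.90 h at E16.5, a change of 0.83 (limma, adjusted p = 0.076; 0.0088 with the variance trend). The spread at E16.5 was wide for Ncapg. The proliferation marker Mki67 was tighter, with 3.59, 3.44 and 3.15 h against 3.65, 3.50 and 3.72 h and a change of 0.44 (limma, adjusted p = 0.0541), and Cdk1, the kinase that drives mitosis, was at 0.60. Of the replication genes, the clamp Pcna was at 0.20 and the helicase subunit Mcm5 at -0.01, and Gins3, at -0.40, was the lowest.

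The cycling genes were also the ones whose level fell: 55 of the 59 were lower at E16.5 at 0 h (edgeR), against a background of 10.8% of all genes measured for half-life, with a median of -1.46. Their label at 0 h did not follow the other genes, with a median rate of 1.24% at E11.5 and 1.12% at E16.5, while the median over all genes went from 1.19% to 1.84%. When the amount of labelled RNA (rate times CPM, the deposited reads scaled to library size) was fitted in place of the rate, the median change of the list was 0.13, Mki67 was at -0.31 and Top2a at -0.08. The part of labelling and of changing levels during the chase in the result was not tested.

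Radial glia markers also lay above the median of all genes. All 8 had positive changes, from 0.05 for Pax6 to 0.82 for Hes1, with a median of 0.36. Of them 6 (75%) did not overlap, against 16.3% of all genes, and the variance trend called 3 gains. The list's median relative half-life was -0.43 to -0.21 in the E11.5 tables and -0.0044 to 0.26 in the E16.5 tables. At E14.5 it was -0.47, below both. Their median rate at 0 h was 1.16% at E11.5 and 0.997% at E16.5, while the median over all genes went from 1.19% to 1.84%. The part of labelling in these changes was not tested. The 1 gain called by limma was Slc1a3, a glial glutamate transporter, with 4.41, 4.78 and 3.60 h at E11.5 and 4.87, 4.82 and 5.32 h at E16.5 and a change of 0.59 (adjusted p = 0.0435, limma). Its level at 0 h had a change of 1.03, and with the label amount its change was -0.07. Fabp7, a fatty acid-binding protein of radial glia, was at 0.43 (limma, adjusted p = 0.0531).

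Sox2, Pax6, Nes and Hes1, the factors and filament that define progenitors, had changes of 0.21, 0.05, 0.16 and 0.82 (limma, adjusted p = 0.186, 0.88, 0.361 and 0.145), and none was called. Hes1, a repressor that oscillates in progenitors, had 1.94, 1.59 and 1.76 h at E11.5 and 3.29, 2.61 and 1.70 h at E16.5, with overlapping stages in hours. Eomes, which marks intermediate progenitors, was at 0.04, and the median of the 6 intermediate progenitor markers was 0.03. Olig2, a bHLH factor of the oligodendrocyte lineage, gained 0.62 (limma, adjusted p = 0.0435), with 1.80, 1.98 and 1.46 h against 2.00, 2.16 and 2.14 h.

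Summed levels of cell type markers moved with stage. At 0 h the 8 radial glia markers summed to 9718 to 10247 CPM at E11.5 and 1496 to 1646 at E16.5, and the 8 neuron markers to 1970 to 2388 and 7046 to 7519. Abundant genes weigh most in a sum: the median radial glia marker was at 184 CPM at E11.5 and 136 at E16.5. EdgeR called 7 of the 8 radial glia markers lower and 1 higher. Oligodendrocyte and astrocyte markers (6 genes) summed to 122 to 151 and 325 to 369, interneuron markers (6 genes) to 39.5 to 45.2 and 268 to 277. E11.5 libraries further held erythroid transcripts at 1644 to 3630 (27.2 to 61.9 at E16.5) and meningeal fibroblast transcripts at 429 to 662 (10.7 to 26.2 at E16.5). Endothelial and mural markers summed to 37.4 to 47.9 at E11.5 and 7.50 to 9.27 at E16.5, and microglia markers to 5.87 to 8.73 and 8.30 to 14.1. No marker was at 0 in all libraries of a stage. None of the erythroid, microglia or meningeal markers was among the measured genes, and the part of the cell mixture in the changes was not tested.

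Lists of progenitor-enriched and neuron-enriched transcripts that the study drew from single-cell data both had positive medians. The 56 progenitor-enriched transcripts had a median change of 0.13, with 0 gains and 0 losses called by limma and 14 gains and 5 losses with the variance trend. The 57 neuron-enriched transcripts had a median of 0.10 with 5 gains and 2 losses called by limma and 17 and 11 with the trend, among them Rbfox2, a splicing regulator, which gained 0.65, and Tbr1 and Neurod6, which lost. Over all genes the trend called 6.86% gains and 5.66% losses. Without overlap were 25 gains (44.6%) and 9 losses (16.1%) of the progenitor-enriched transcripts. For the neuron-enriched transcripts these were 25 gains (43.9%) and 13 losses (22.8%), against 16.3% and 15.5% of all genes. Losses of the progenitor-enriched list were thus near the share over all genes. In the log-linear fit the neuron-enriched median was -0.12.

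**Figure D3:**
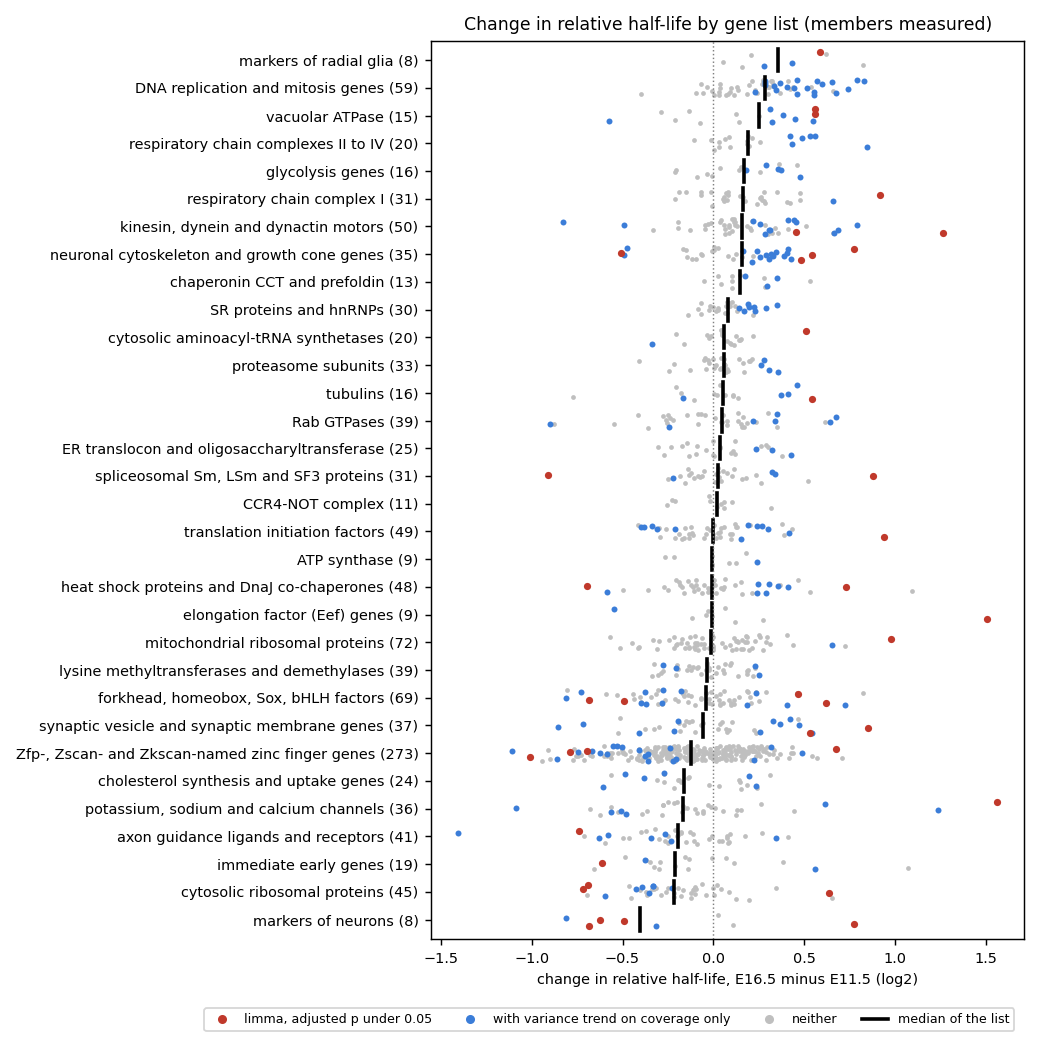
Change in relative half-life (log2, E16.5 minus E11.5) of each measured gene in lists with at least 8 measured members, sorted by the list median (black bar). Collagens and laminins and the study's progenitor-enriched and neuron-enriched lists are not shown. Red points were called by limma, blue points only with the variance trend on coverage, and grey points by neither. Radial glia markers (0.36), replication and mitosis genes (0.29) and the vacuolar ATPase (0.25) head the plot, and cytosolic ribosomal proteins (-0.21) and neuron markers (-0.40) close it.

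Among the machines of the cell, the vacuolar ATPase, respiratory chain and motor proteins had positive medians. Of 15 vacuolar ATPase genes, which acidify vesicles and lysosomes, limma called 2 gains and the variance trend 7 gains and 1 loss. In 10 gains (66.7%) and 4 losses (26.7%) replicates did not overlap, against 16.3% and 15.5% of all genes. The called genes were Atp6v0a1 and Atp6ap1, each with a gain of 0.56, and the list had a median of 0.25. For Atp6v0a1 the half-lives were 5.10, 5.03 and 4.62 h at E11.5 and 6.02, 5.55 and 5.54 h at E16.5. Atp6v0e, a small membrane subunit, was at -0.57, so the subunits did not move as a block. In the log-linear fit the median of the vacuolar ATPase list was 0.04.

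Complexes II to IV of the respiratory chain had 18 of 20 members with a positive change and a median of 0.19. Cox6a1, a subunit of cytochrome oxidase, had 11.9, 12.6 and 12.7 h at E11.5 and 21.0, 17.3 and 14.8 h at E16.5. Its change was 0.85 (limma, adjusted p = 0.0555), and no member of this list was called by limma. Complex I had a median of 0.16 with 24 of 31 positive. It had 10 gains (32.3%) and 0 losses without overlap, against 16.3% and 15.5% of all genes. Limma called 1 gain in the complex I list, Ndufa4, which was placed there by its symbol and not counted with complexes II to IV. For ATP synthase the median was -0.01 over 9 genes, and for the mitochondrial ribosome -0.01 over 72 genes, of which only Mrpl48 was called by limma.

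Kinesin, dynein and dynactin genes had a median of 0.16 over 50 members, but 0.01 in the log-linear fit and 0.07 without the 0 h library. Gains and losses without overlap were 24 (48%) and 3 (6%), against 16.3% and 15.5% of all genes. Limma called Dynlrb1 and Kif22, a chromosome-bound mitotic kinesin (gain 0.45). The list mixes mitotic kinesins with neuronal transporters: Kif2c and Kif23 were at 0.68 and 0.79 and the axonal motor Kif1a at 0.46, while Kif5a was at -0.49. Glycolysis genes had a median of 0.17 (0.09 in the log-linear fit) and the chaperonin CCT with prefoldin 0.15 (0.04 in that fit). Among their 16 and 13 members, 6 gains (37.5%) and 5 gains (38.5%) and 0 losses did not overlap. In lists this short, 0 losses say little beside the 15.5% over all genes. SR proteins and hnRNPs, which bind pre-mRNA, were at 0.08, with 11 gains (36.7%) and 1 loss (3.33%) without overlap. The 33 proteasome genes were at 0.06.

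Cytosolic ribosomal proteins had a negative median by rate, and a median near 0 by label amount over fewer genes. At E11.5 their transcripts were the longest-lived of the lists, with a median of 10.8 h. At E16.5 it was 6.80 h, below the 7.74 h of complexes II to IV and the 7.66 h of ATP synthase. Of 85 genes, 63 passed the limit on covered Ts and 45 were measured, of which 10 had a positive change. The other covered genes missed the limit on half-life or on R2 in at least 1 table. Values of this list therefore leave out any gene fitted at 24 h or more in a table. Replicates did not overlap in 1 gain (2.22%) and 16 losses (35.6%), against 16.3% and 15.5% of all genes. Limma called 1 gain and 2 losses and the variance trend 1 gain and 9 losses. The median change was -0.21, and the list's median relative half-life was 1.14 to 1.35 at E11.5 and 0.99 to 1.02 at E16.5. With the label amount in place of the rate the median was 0.02, over the 36 genes of the list that passed in that fit. The 2 medians thus cover different sets of genes, and the part of this in their difference was not tested.

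Rps15a, of the small subunit, had 9.18, 10.6 and 10.1 h at E11.5 and 4.27, 4.82 and 5.23 h at E16.5, a change of -0.72 (limma, adjusted p = 0.0477). Rpl22, of the large subunit, changed by -0.69, with 12.0, 15.5 and 10.8 h against 5.97, 6.34 and 6.13 h. Rpl15 went against them, with 5.02, 4.71 and 4.36 h against 5.56, 5.53 and 6.12 h and a gain of 0.64. The 12 h level of the list's genes was -0.24 on the log2 scale from its 0 h level at E11.5 and 0.03 at E16.5, against -0.16 and 0.00 over all genes. Ribosomal protein genes have many processed pseudogenes, so reads may have been split between copies. Translation factors did not follow: the 49 initiation factors had a median of 0.00, with a gain in Eif6, and the 9 genes named for elongation factors -0.01, in which the called gain was that of the modifying enzyme Eef1akmt1, and the 20 aminoacyl-tRNA synthetases were at 0.06, with a gain of 0.51 in Eprs.

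Zinc finger genes, which were short-lived at both stages, had a small negative median. The 273 measured zinc finger genes named Zfp, Zscan or Zkscan, most of them DNA-binding repressors, had a median half-life of 3.23 h in the E11.5 cultures against 2.20 h in those of E16.5 and a median change of -0.12. Of them, 21 gains (7.69%) and 59 losses (21.6%) did not overlap, against 16.3% and 15.5% of all genes, while limma called 1 gain and 3 losses and the variance trend 3 gains and 19 losses. Zscan25 changed by -0.79, with 2.63, 3.15 and 2.50 h against 1.18, 1.22 and 1.37 h, and Zfp53 gained 0.68 but was not called with the trend (limma, adjusted p = 0.0981). Forkhead, homeobox, Sox and bHLH factors were at -0.04 over 69 members, with called gains in Olig2 and Cux1 and a called loss in Neurod6 among them.

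Immediate early genes, the transcripts induced within minutes by stimulation, had the shortest half-lives of the lists, with a median of 2.10 h in the E11.5 cultures against 1.49 h in those of E16.5. Their median change was -0.21 over 19 members, but 0.06 in the log-linear fit. Dusp1, a MAP kinase phosphatase, was the called member, with 2.80 ± 0.250 h against 1.44 ± 0.0559 h (SD, n = 3 each) and a change of -0.61. Fosl2 was at 0.56 and had not passed limma (adjusted p = 0.0566). Genes of cholesterol synthesis and uptake had a median of -0.16, from -0.61 for Dhcr7 to 0.31 for Fdps, with no member called by limma. At E11.5 their level had fallen by 0.67 on the log2 scale after 12 h of chase, against 0.02 at E16.5 and the drift of -0.16 at E11.5 over all genes, and the part of this drift in their change was not tested.

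Channel genes were few and scattered: of 132 potassium, sodium and calcium channel genes, chosen by symbol, 36 were measured, with a median of -0.17. The called member, Kcnn4, is gated by calcium, while most of the list is gated by voltage. The CCR4-NOT deadenylase, 11 of 11 genes measured, had a median of 0.02, with 3.68, 3.96 and 3.45 h against 2.94, 2.93 and 3.12 h for its scaffold Cnot1 and changes of 0.04 and 0.10 for Cnot1 and Cnot3. Histone lysine methyltransferases and demethylases were at -0.03 over 39 genes, DnaJ and heat shock genes at -0.01 over 48, and Rab GTPases at 0.05 over 39. Of the DnaJ genes, Dnajb6 gained 0.73 and Dnajc25 changed by -0.69. Of the splicing proteins, Snrpn, an imprinted gene of neurons whose exons overlap Snurf, gained 0.88 and Lsm10 changed by -0.91. Replication-dependent histones had no measured member among 8, and collagens and laminins had 8 of 55.

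**Figure D4:**
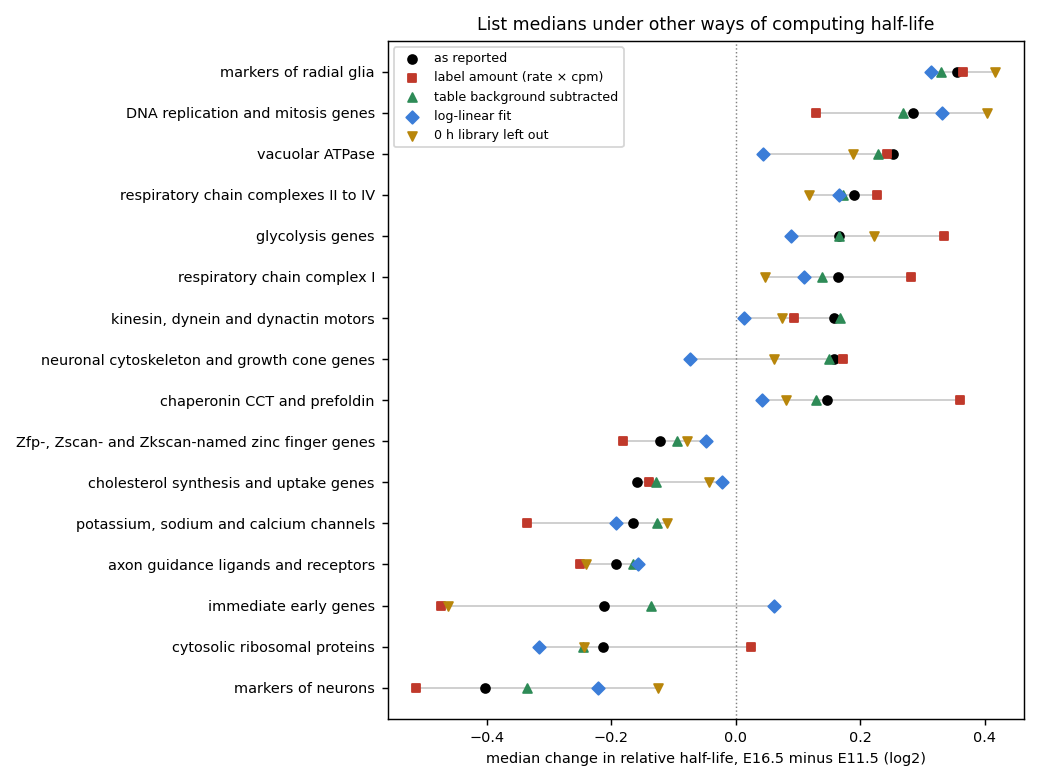
Median change in relative half-life (log2, E16.5 minus E11.5) of the lists whose reported median exceeds 0.1 in size, as reported (black) and with 4 other ways of computing half-life: label amount in place of rate, a background taken from each table, a log-linear fit, and the 0 h library left out. The background taken was 0 in E16.5 replicates B and C, so that setting subtracted nothing there. Radial glia markers, replication and mitosis genes and complexes II to IV stay above 0 and axon guidance genes, neuron markers and zinc finger genes below it, whereas ribosomal proteins, neuronal cytoskeleton and immediate early genes cross it under 1 setting. Medians cover the list genes that passed in each fit. With label amount these were 36 ribosomal protein genes in place of 45, and 6 in place of 8 for radial glia and for neuron markers.

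Relative change was related to how long a transcript lived and how it was labelled. Across the 10220 genes, which are not independent replicates, the change had a Spearman correlation of 0.284 with the mean relative half-life of both stages, and of 0.154 when each table was also divided by its SD. It correlated at -0.335 with the change of the 0 h rate, which is part of the measurement: genes that gained more label at 0 h had the lower changes. With the change of level at 0 h the correlation was -0.0515. Genes whose level fell (1102 genes, edgeR) had a median change of 0.12 and genes whose level rose (1177 genes; 14.8% of the 18797 genes tested by edgeR rose) of -0.04. With the variance trend, 120 of the genes whose level fell gained (10.89%) and 40 lost (3.63%). Of the genes whose level rose, 125 gained (10.62%) and 135 lost (11.47%). Over all genes these shares were 6.86% and 5.66%. Gains were thus above the share over all genes in both groups, while losses were below it where the level fell and above it where the level rose.

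Called losses had a longer median 3′ UTR than called gains. For the longest coding isoform of each of the 9339 protein-coding genes in GENCODE vM21, the median 3′ UTR was 1147 nt, against 974.5 nt in the 96 called gains and 1367 nt in the 85 called losses. With the variance trend it was 1100 nt in 653 gains and 1770 nt in 559 losses. The coding length differed less, with medians of 1366.5 nt and 1341 nt for the called gains and losses and 1479 nt over all, and the GC content at the last position of codons was 60.5% and 62.4%. Across genes, the Spearman correlation of change with 3′ UTR length was -0.122 (n = 9339). The isoforms used in these cells were not measured.

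The 3′ UTRs were searched on the transcribed strand for elements known to speed decay. Shown first are the mature miRNAs whose seed matches were counted, since these small RNAs guide deadenylation to matching sites; capitals mark the seed, bases 2 to 8 (sequences from RefSeq, GRCm38.p6).
let-7a-5p: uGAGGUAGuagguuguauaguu
miR-9-5p: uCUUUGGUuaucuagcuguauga
miR-128-3p: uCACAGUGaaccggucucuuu
miR-17-5p: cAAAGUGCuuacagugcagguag
miR-92b-3p: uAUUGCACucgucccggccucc
The let-7 family rises as the cortex matures and is known from the timing of development, miR-9 and miR-128 are abundant in brain, and miR-17 and miR-92b belong to families of dividing progenitors. Their levels were not measured here.

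The let-7 seed match, CTACCTC, was more frequent in losing than in gaining genes. It lay in 912 of the 9339 3′ UTRs (9.77%), in 6 of the 96 called gains and in 14 of the 85 called losses. With the variance trend the counts were 39 of 653 gains and 81 of 559 losses. Longer 3′ UTRs hold more matches of any kind. Per kilobase there were 0.0425 let-7 matches in called gains and 0.109 in called losses, against 0.0677 over all 3′ UTRs. With the variance trend these were 0.0374 and 0.0792, so the losses were then closer to all genes.

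The median change of genes with a let-7 match was -0.09, against 0.00 without. The same order was found within each range of 3′ UTR length: -0.08 against 0.03 in the shortest (up to 668 nt, 69 genes with a match), -0.08 against 0.00 in the middle (669 to 1798 nt, 239 genes) and -0.09 against -0.04 in the longest range (604 genes). With label amount in place of the rate the medians over all lengths were -0.12 and 0.01.

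Matches to miR-128, CACTGTG, were present in 22.2% of 3′ UTRs, 24.0% of called gains and 31.8% of called losses. With the variance trend the counts were 145 of 653 gains and 177 of 559 losses, a wider gap in share than for let-7, but per kilobase the values of 0.171 and 0.186 were close to the 0.172 over all. The change of genes had medians of -0.05 and 0.00 with and without a match. For miR-9, ACCAAAG, the share over all was 13.1%, with 11 called gains and 12 called losses. For miR-17, GCACTTT, the shares over all, in gains and in losses were 15.3%, 8.33% and 11.8%, and for miR-92b, GTGCAAT, 7.85%, 9.38% and 14.1%. The Pumilio element TGTANATA was in 28.2% of 3′ UTRs, 26.0% of gains and 35.3% of losses, and the AU-rich nonamer TTATTTATT in 8.23%, 12.5% and 11.8%. Genes with the nonamer had a median change of 0.12 against 0.03 without it in the shortest range of 3′ UTR length (80 genes with the element) and of -0.04 against -0.05 in the longest.

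**Figure D5:**
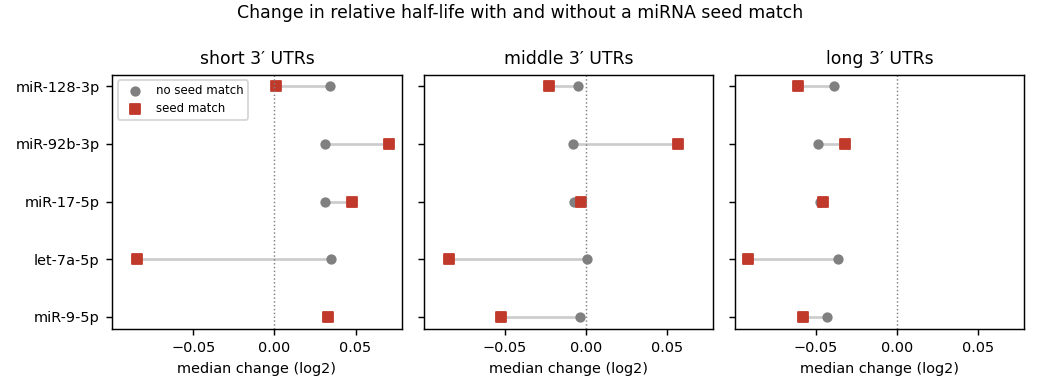
Median change in relative half-life (log2, E16.5 minus E11.5) of genes with (red squares) and without (grey circles) a seed match to each of 5 miRNAs, in the shortest, middle and longest range of 3′ UTR length. For let-7a the squares lie left of the circles in all 3 panels, at -0.08, -0.08 and -0.09, while for miR-92b they lie to the right.

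Windows of 30 bases around the let-7 match are shown for 5 of the called genes that hold one, chosen after their values were seen, in 4 that lost relative half-life and in Dcx, which gained; capitals mark the match, and coordinates are GRCm38.
Fndc10, chr4:155696389-155696418, plus strand: gcacccgtgtcCTACCTCtctgtctttgct
Cemip2, chr19:21857899-21857928, plus strand: tacagaacatgCTACCTCaaagtgctgtga
Hecw2, chr1:53809786-53809815, minus strand: tctattcaacaCTACCTCgatggcaatggc
Map3k13, chr16:21928968-21928997, plus strand: gaccaggttgtCTACCTCctggaaccacac
Dcx, chrX:143860747-143860776, minus strand: gttgcttgttcCTACCTCctgactgttctt
All 5 lie in the 3′ UTR of the longest coding isoform. Fndc10, a membrane protein with a fibronectin domain and 2 matches, changed by -0.91, and its half-life went from 6.91, 5.47 and 5.60 h to 2.49, 2.40 and 2.62 h. Cemip2, a cell surface hyaluronidase, changed by -0.83, with 5.28, 5.94 and 3.83 h against 2.06, 1.95 and 2.57 h. Hecw2, a ubiquitin ligase, and Map3k13, the leucine zipper kinase of axonal injury signalling, changed by -0.77 and -0.74, and their E16.5 values of 1.83, 2.21 and 2.02 h and 1.89, 1.85 and 1.81 h lay below all of their E11.5 values. Dcx was 1 of 6 called gains with a match, beside 14 called losses, so a match did not go with a loss in every gene. Marcksl1 and Dnajb6 were also among these gains.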

How the data were processed

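The authors aligned reads to mm10 with SlamDunk, summed covered and converted Ts over the exons of each gene, and deposited for each stage and replicate a table with covered T counts, the T-to-C conversion rate as a fraction and normalized read counts (CPM) at 5 chase times, in wild-type cultures. Columns with the authors' own half-lives were not used. The deposited tables of E11.5, E14.5 and E16.5 were grouped by the sample labels.

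Rates were divided by the 0 h rate, exp(-kx) was fitted by least squares and half-life was ln2/k. Log2 half-lives, centred on each table's median, were compared with limma 3.58.1 (lmFit, eBayes) over all 10220 genes with Benjamini-Hochberg adjustment. Stage medians and SDs were compared by exact permutation. Levels at 0 h were compared from the covered T counts with edgeR 4.0.16 (quasi-likelihood, TMM, more than 10 counts in every library, adjusted p under 0.05 and a log2 change above 1), which called 2786 of 18797 genes up (14.8%) and 2656 down (14.1%). Covered Ts of the same read are not independent. CPM steps gave whole reads for 100% of values (tolerance 0.01), and on those reads edgeR called 2049 up and 1945 down. DESeq2 1.42.0 was an alternative. Scripts were tested on simulated data. In this design, limma and edgeR p-values rest on the spread between 3 replicates per stage. That spread holds differences between pools together with the noise of single wells, libraries and fits.

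Replicate letters do not pair samples: pools of different stages are different embryos, and deviations of same-letter tables from the stage means correlated at -0.00557, -0.00823 and 0.018. Symbols were matched to GENCODE vM21 (GRCm38; 96.4% of listed genes). UTR elements were counted in the longest coding isoform.

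Genes were named by rule: the 12 largest gains and 12 largest losses among called protein-coding genes without overlap, the 2 largest called gains and losses of each list, and Sox2, Pax6, Hes1, Nes, Eomes, Dcx, Tubb3, Neurod2, Tbr1, Cnot1 and Cnot3; a gene that the rule also named is not reported here. Other genes were named from the lists after their values were seen. The genes and lists were chosen with earlier results of these data known. Alternatives covered the fit, background, scaling, filters, variance model, replicate block and each replicate left out. Depth was 16495500 to 42765200 reads per library, and counting limits each rate to the covered Ts behind it.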

Additional observations from a re-analysis of the deposited data

How the results depend on the processing

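Counts of called genes depended strongly on the processing. In every alternative that left out or rescaled tables, all 198 called genes kept their sign. Replicates of all 198 did not overlap between the stages, so leaving out 1 table could not have changed a sign. Gains and losses, 108 and 90 as reported, were 28 and 2118 without centring, 0 and 0 after division by the SD (1125 and 1102 at an unadjusted p under 0.05), 0 and 0 after quantile normalization (1128 and 1014), 169 and 97 with a log-linear fit, 12 and 7 without the 0 h library, 61 and 52 with a background of each table, 264 and 213 at R2 over 0.8, 264 and 247 at covered Ts over 2000, 1 and 4 without an R2 filter, 701 and 578 with the variance trend, 69 and 58 with a robust variance, and 41 and 44 with the label amount, which was chosen after seeing the data. The pooled background came to 0 and changed nothing. That of each table, from the lowest 12 h rates, was 0.0359% to 0.0723% at E11.5 and 0.0456% in E16.5 replicate A. In E16.5 replicates B and C it was 0, so this setting was a weak check. Leaving out each replicate gave 0 to 0 gains and 0 to 0 losses in limma (880 to 1226 and 811 to 1269 at an unadjusted p under 0.05). With a replicate block, gains and losses were 0 and 0 (1082 and 1021), but the letters do not pair samples; for levels at 0 h the block gave 2791 up and 2625 down. The cause of these differences was not tested.

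Of the called genes with a value, 159 of 178 kept their sign in the log-linear fit, 156 of 169 without the 0 h library and 180 of 183 with the label amount. Among named genes, without the 0 h library Mrpl48 was at -0.312 and Ube2cbp at 0.0734, and in the log-linear fit Rbfox2 was at -0.0805, each opposite to its reported sign. The difference in the SD of log2 half-lives was -0.00609 in the log-linear fit and -0.0172 without the 0 h library, opposite to the reported 0.0456. The difference in median half-life stayed between -1.28 and -0.591 h. Where levels at 0 h were called by other tools or filters, counts stayed within 1.5 times of those reported. Depth limits genes near 500 covered Ts, whose rates rest on few converted positions.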

Other observations

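Gm42418, a locus that overlaps a ribosomal RNA sequence, behaved differently during the chase at the 2 stages. Its level was 4582, 3862 and 9482 CPM at 0 h and 29686, 35413 and 67623 at 12 h in E11.5 replicates A, B and C, against 1507, 1485 and 2254 at 0 h and 1656, 1757 and 1855 at 12 h in the E16.5 replicates. CPM values of other genes at E11.5 are measured against this growing share.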
